A study of Mus musculus with 5 samples.

Results

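The genes described here are 7 acute-phase genes, Saa1, Saa2, Saa3, Lcn2, Hp, Orm1 and Ptx3, in fibroblasts of the mouse mammary gland. They were chosen by gene symbol, with the rise of Saa3 in this comparison already known, and all 7 were found among the 45706 rows of the deposited table. RNA sequencing was done on PDGFRa+ cells sorted from the fourth and the fifth mammary glands of Balb/c mice, 3 libraries from glands 6 days after weaning (involution day 6) and 2 libraries from nulliparous glands. PDGFRa, a growth factor receptor, is the surface marker that defines the sorted cells as fibroblasts. The labels state neither the age of the animals nor whether glands were pooled, and name no allele or drug. The involuting glands had also gone through pregnancy and lactation, so effects of these and of weaning cannot be told apart. The series calls the libraries of each group biological replicates. The comparison asks how fibroblast expression at this stage of involution differs from that of the gland before pregnancy.

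The acute-phase response is the change in secreted plasma proteins that follows infection or tissue injury, made for the most part by the liver. Cytokines of the IL-6 and oncostatin M family act through STAT3, and IL-1 and TNF act through NF-kB and C/EBP factors, to switch these genes on. In the involuting mammary gland, STAT3 is activated after weaning and acute-phase genes are known to be induced in the epithelium. Saa1, Saa2 and Saa3 encode serum amyloid A proteins, which ride on high-density lipoprotein and attract leukocytes. Saa1 and Saa2 are the liver forms, whereas Saa3 is made in mice mainly outside the liver, for example in macrophages and adipose tissue. Lcn2 encodes lipocalin 2, which withholds iron from bacteria by binding their siderophores. Hp encodes haptoglobin, which captures free haemoglobin, and Orm1 encodes orosomucoid, a carrier of drugs and lipids. Ptx3 encodes the long pentraxin PTX3, a soluble recognition protein that also crosslinks hyaluronan-rich matrix.

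Saa3, Saa1 and Saa2 lie in 1 cluster on chromosome 7 (GRCm38), with Saa4 between Saa3 and Saa1. The sequences upstream of these 3 genes are shown to compare them within the cluster, where Saa1 and Saa2 share nearly the same promoter. A link between these sequences and how the RNA of each gene followed the libraries was not tested. The sequences come from a set of RefSeq promoters on GRCm38.p6. The set used here held an entry for 5 of the 7 genes and none for Hp and Orm1. They are given 5′ to 3′ on the strand of the gene, at chr7:46715701-46715926 (minus strand), chr7:46742981-46743230 (minus strand) and chr7:46751583-46751789 (plus strand), and end at the more upstream of the RefSeq and the GENCODE M21 start. Capitals mark matches to TTNNGCAA, a short form of the C/EBP site, searched on both strands.
Saa3: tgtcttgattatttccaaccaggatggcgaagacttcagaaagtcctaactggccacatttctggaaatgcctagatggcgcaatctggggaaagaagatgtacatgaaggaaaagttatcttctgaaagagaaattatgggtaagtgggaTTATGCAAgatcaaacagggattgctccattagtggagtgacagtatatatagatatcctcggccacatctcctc
Saa1: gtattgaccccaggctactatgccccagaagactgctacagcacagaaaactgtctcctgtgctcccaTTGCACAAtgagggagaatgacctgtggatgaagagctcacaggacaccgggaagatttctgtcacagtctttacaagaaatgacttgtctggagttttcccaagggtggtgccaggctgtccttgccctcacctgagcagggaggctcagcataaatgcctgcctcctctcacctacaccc
Saa2: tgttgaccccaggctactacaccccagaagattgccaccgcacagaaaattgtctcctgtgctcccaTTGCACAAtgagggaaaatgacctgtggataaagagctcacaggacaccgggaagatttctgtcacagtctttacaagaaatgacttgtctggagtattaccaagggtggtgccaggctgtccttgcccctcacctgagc
Over 250 bases upstream of the RefSeq start, Saa1 and Saa2 were identical at 94.8% of aligned columns, and Saa1 and Saa3 at 48.9%. Saa1 and Lcn2, on different chromosomes, were identical at 49.0%, and all pairs but Saa1 and Saa2 lay between 44.6% and 52.6%. A C/EBP match was present in the 250 bases of all 5 genes with an entry and in 9.56% of 32851 mouse promoters of that length. In Saa3 it read TTATGCAA and began at position -99 from the start, in Ptx3 TTGTGCAA at -57, and in Lcn2 TTGCTCAA at -216. The pair in Saa1 and Saa2 is 1 site in a duplicated sequence. The letters TTCNNNGAA, a STAT site that reads the same on both strands, were in 7.02% of promoters and in 0 of these 5 windows. A short form of the NF-kB site, also searched on both strands, was in 1.41% of promoters and in 0 of these 5 windows. A match describes letters in a window and does not show that a factor binds there.

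The deposited values are log2 scaled counts. Rows with no reads sit at about 3.57, so an offset of about 11.8 was inferred and differences of weakly expressed genes are understated. A fixed offset is inexact, since some values lie below it, down to 3.44. Where levels are given as scaled counts, this offset has been removed and values below it were set to 0. Scaled counts close to 0 are therefore approximate. Scaled counts summed to between 37600000 and 43000000 per library. Of 10 fibroblast markers, Pdgfra of the sort among them, 0 were called in either direction. Of all genes tested, 6.65% were called higher and 4.66% lower. The mean log2 value of the 10 was 17.37, 17.29 and 17.16 at involution day 6 and 17.02 and 17.03 in nulliparous glands. It was thus somewhat higher in each involution library. A test between groups does not show the identity of the cells. In a sorted bulk sample, fewer cells of a type and less RNA per cell cannot be told apart.

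The serum amyloid A genes were the members furthest above their nulliparous level. Saa3 (ENSMUSG00000040026, chromosome 7 from 46711998 to 46715700, minus strand) had 11.75, 13.13 and 12.60 on the log2 scale at involution day 6, against 6.042 and 6.1997 in nulliparous glands. As scaled counts these are 3431, 8946 and 6192, against 54.0 and 61.7. The lowest involution library stood 5.55 above the highest nulliparous library. The group means were 12.49 ± 0.70 (SD, n = 3) and 6.12 ± 0.11 (SD, n = 2), which differ by 6.37 ± 0.37 (SE). The mean scaled count was 107-fold higher at involution day 6. Per kilobase of its principal transcript Saa3 ranked 192 of 14162 genes at involution day 6 and 9606 in nulliparous glands.

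Saa1 (ENSMUSG00000074115, chromosome 7 from 46740497 to 46742980, minus strand) had log2 values of 9.13, 8.49 and 7.35 at involution day 6 and 5.20 and 4.53 in nulliparous glands. Its groups did not overlap, and its scaled counts, 549, 348 and 151 against 24.9 and 11.3, were far below those of Saa3. Saa2 (ENSMUSG00000057465, chromosome 7 from 46751790 to 46754313, plus strand) had 7.62, 6.81 and 6.11 at involution day 6, against 4.07 and 3.82. In nulliparous glands Saa2 was barely detected, with 5.01 and 2.28 scaled counts. Both nulliparous values lay under the filter on low values, which Saa2 passed through the involution libraries. The difference between groups was 3.46 ± 0.52 for Saa1 and 2.90 ± 0.44 for Saa2 (log2 ± SE from limma, n = 3 and 2). With the offset removed and 1 added the differences were 4.11 and 4.54, so their order depends on the offset.

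Within a library, Saa1 had 2.98, 3.47 and 2.64 scaled counts for each count of Saa2 at involution day 6, and 4.97 and 4.95 in nulliparous glands. The nulliparous ratios rest on 5.01 and 2.28 scaled counts of Saa2, close to the offset, so they are imprecise. The ratio of Saa3 to Saa1 was far less even at involution day 6, at 6.24, 25.7 and 41.0, and was 2.17 and 5.47 in nulliparous glands. The Saa1 and Saa2 transcripts were identical at 87.3% of aligned columns, and 9.11% of the 50-base windows of Saa1 occurred unchanged in Saa2. Saa1 shared 1.61% of such windows with Saa3, and Saa2 shared 0.00%. How reads that fit both Saa1 and Saa2 were assigned is not given in the sources used here, and the part of shared reads in their likeness was not tested.

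Of the 6 tested neighbours from Tph1 to Ldha, 0 passed the test. Saa4, which encodes a constitutive form carried on lipoprotein, was barely above the offset in each library, at 3.68, 3.78 and 3.70 at involution day 6 and 3.67 and 3.57 in nulliparous glands. Saal1, which starts 5.02 kb from the Saa3 start, differed by -0.10 ± 0.11 (adjusted p = 0.567, limma with Benjamini-Hochberg adjustment). Hps5 and Gtf2h1, on the other side of Saa2, differed by 0.05 ± 0.10 and 0.24 ± 0.09 (adjusted p = 0.798 and 0.154 in limma). Tph1, the tryptophan hydroxylase gene of serotonin synthesis, had 7.06, 4.38 and 4.68 at involution day 6 and 9.21 and 7.76 in nulliparous glands (difference -3.11 ± 0.86, adjusted p = 0.0712 in limma). These neighbours were named for their position after their values were seen.

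**Figure D1:**
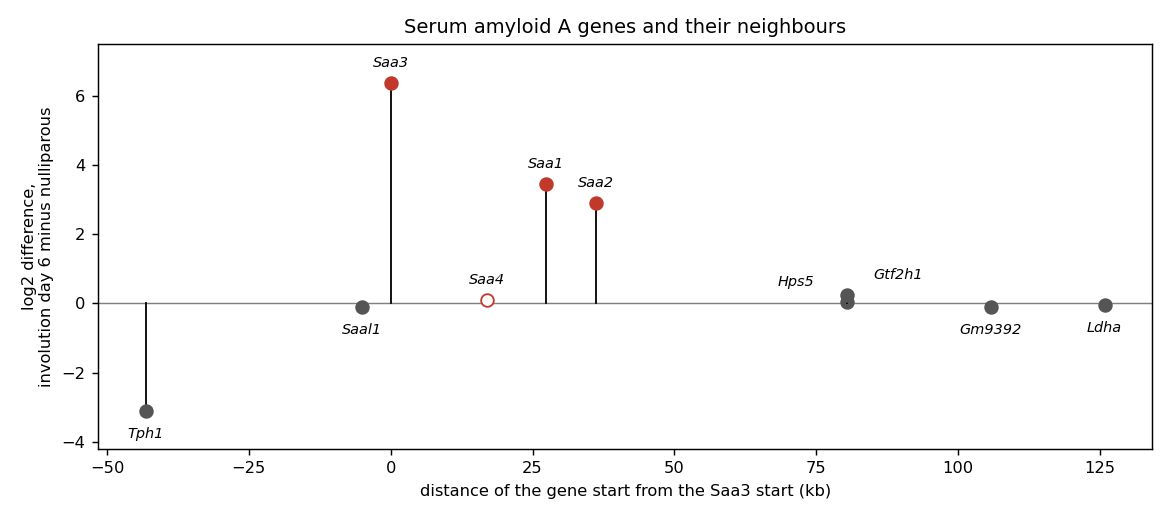
Log2 difference of involution day 6 minus nulliparous (vertical axis) against the distance in kb of each gene's start from the Saa3 start (horizontal axis) for the annotated genes with a row in the table from Tph1 to Ldha. Filled points are genes that passed the filter on low values and the open point is Saa4, which did not; Saa3, Saa1 and Saa2 stand at 6.37, 3.46 and 2.90, and Saal1 at -0.10.

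Lcn2 and Hp were abundant in both groups and spread widely within each. Lcn2 (ENSMUSG00000026822, chromosome 2 from 32384633 to 32388252) had 12.37, 11.37 and 9.98 at involution day 6, against 11.20 and 9.13. Involution replicate 3 lay below nulliparous replicate 1, so the groups overlapped. The group means were 11.24 ± 1.20 (SD, n = 3) and 10.17 ± 1.46 (SD, n = 2). They differed by 1.07 ± 0.82 (SE). Hp (ENSMUSG00000031722, chromosome 8 from 109575128 to 109579172) had 12.09, 10.45 and 9.43 at involution day 6, against 9.99 and 7.75. Its groups overlapped as well, and the difference was 1.79 ± 0.91. Leaving out nulliparous replicate 2 changed these differences to 0.04 for Lcn2 and 0.66 for Hp, and leaving out nulliparous replicate 1 to 2.11 and 2.91, so each rests on which nulliparous library is used.

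Orm1 (ENSMUSG00000039196, chromosome 4 from 63344560 to 63348163) had the lowest mean level of the members at involution day 6, with 39.9, 14.7 and 12.3 scaled counts at involution day 6 and 6.29 and 3.34 in nulliparous glands. On the log2 scale the values were 5.69, 4.73 and 4.59, against 4.18 and 3.92, and the groups did not overlap. Orm1 passed the filter on low values through the involution libraries, so its presence among the tested genes is not independent of its difference. Its difference of 0.95 ± 0.38 became 1.86 with the offset removed and 1 added. Its neighbours Orm3 and Orm2, at the same locus, were barely detected, with no library above 6.39 scaled counts. The Orm1 transcript shared 20.4% of its 50-base windows with Orm2 and 2.20% with Orm3, and the part of shared reads in its values was not tested.

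Ptx3 (ENSMUSG00000027832, chromosome 3 from 66219910 to 66225805) was the most abundant member in nulliparous glands. It had 13.41, 14.06 and 14.99 at involution day 6, against 11.65 and 13.54. Nulliparous replicate 2 stood above involution replicate 1, by 0.13, so the groups overlapped. The difference was 1.56 ± 0.64, and 0.62 without nulliparous replicate 1 or 2.51 without nulliparous replicate 2. Per kilobase of principal transcript Ptx3 ranked 204 of 14162 genes at involution day 6 and 462 in nulliparous glands. On that scale it stood at 5712, 9022 and 17187 scaled counts per kilobase at involution day 6, beside 6182, 16119 and 11156 for Saa3. In nulliparous glands it stood at 1686 and 6266, beside 97.4 and 111 for Saa3. The order of the mean levels per kilobase at involution day 6 was Saa3, Ptx3, Lcn2, Hp, Saa1, Saa2 and Orm1, in which each neighbouring pair overlapped across libraries except Saa2 and Orm1.

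**Figure D2:**
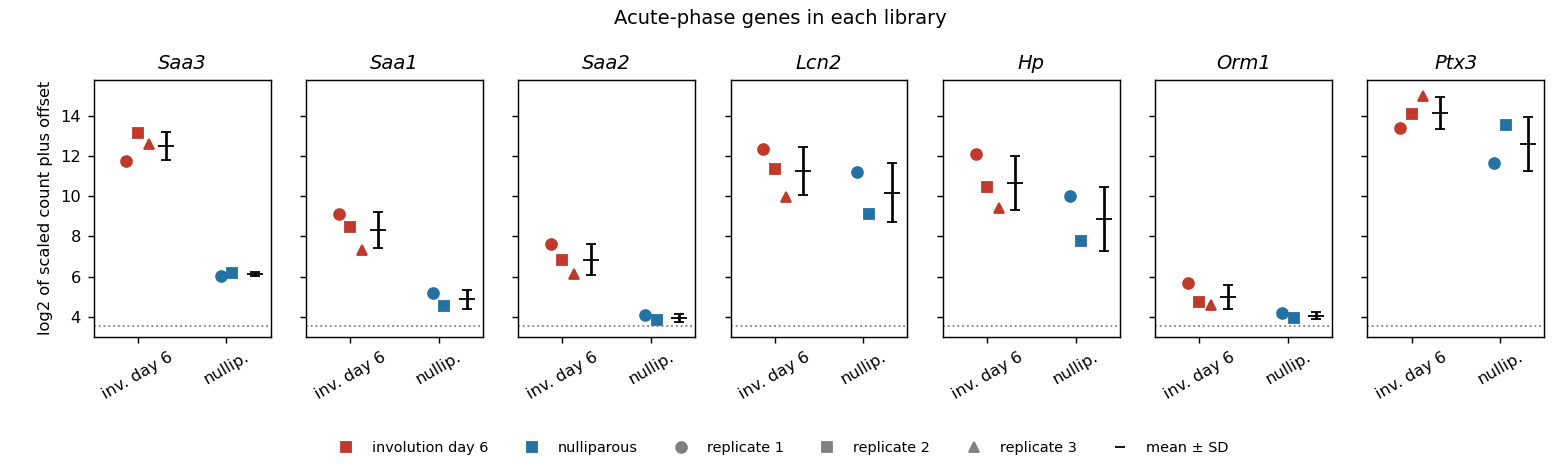
Log2 of the scaled count plus offset (vertical axis) of each gene in the 3 involution day 6 libraries (red) and the 2 nulliparous libraries (blue), with symbols for the replicate numbers, the mean and the SD, and a dotted line at the offset. Saa3, Saa1, Saa2 and Orm1 show no overlap between groups, while Lcn2, Hp and Ptx3 do; Saa3 reaches 11.75 to 13.13 at involution day 6.

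All 7 members had a higher mean at involution day 6 and all 7 passed the filter on low values. In 4 of the 7 every involution library was above every nulliparous library, which held for 21.9% of the 15912 genes tested, while the reverse held for 25.1%. Saa2 and Orm1, 2 of these 4, were among the genes tested only because their involution values lifted the mean over the filter, so for them neither the gap nor a call is independent of the filter. By the limma test over all genes 3 of the 7, Saa1, Saa2 and Saa3, were called higher, where 6.65% of all genes were called higher and 4.66% lower. Without involution replicate 2, nulliparous replicate 1 or nulliparous replicate 2, Saa3 was called and Saa1 and Saa2 were not. Because the members were chosen with this comparison known, these counts describe them and no p-value is given for a member. Their median difference was 1.79, beside -0.03 for all genes tested. Scaling each library to the same sum moved that last median to -0.16 and the calls to 803 higher and 1731 lower, against 1058 and 742 as deposited. The 7 members stayed positive under that scaling, with Saa1, Saa2 and Saa3 called.

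Saa1, Saa2, Lcn2, Hp and Orm1 were all highest in involution replicate 1, lower in replicate 2 and lowest in replicate 3, and higher in nulliparous replicate 1 than in replicate 2. That order held for 12.7% of the 15912 genes tested. It held for 12 of 12 macrophage markers, 11 of 12 luminal markers, 6 of 6 basal epithelial markers and 4 of 6 endothelial markers, but for 1 of 10 fibroblast, 1 of 5 neutrophil and 0 of 3 adipocyte markers among those tested. Saa3 and Ptx3 did not show it. Saa3 was lowest in involution replicate 1, at 0.74 below its group mean, and highest in replicate 2. Ptx3 deviated by -0.75, -0.09 and 0.84 at involution day 6 and by -0.94 and 0.94 in nulliparous glands, the opposite order to Lcn2, which deviated by 1.13, 0.13 and -1.26 and by 1.04 and -1.04.

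**Figure D3:**
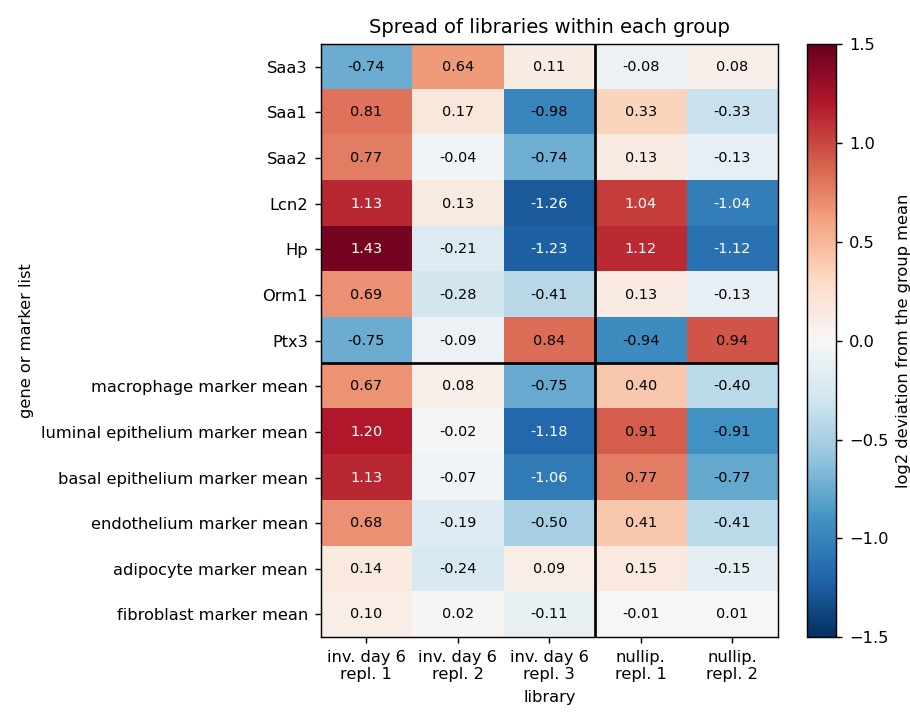
Deviation of each library from the mean of its own group (log2 units, colour and printed value) for the 7 genes and for the means of 6 marker lists, with libraries in columns. Lcn2 and Hp run from above 1 in involution replicate 1 to below -1 in replicate 3, as the luminal and basal marker means do, whereas Saa3 and Ptx3 are lowest in involution replicate 1 and the fibroblast marker mean deviates by 0.10, 0.02 and -0.11 at involution day 6.

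RNA of other cells was present in the sorted samples. The 12 macrophage markers summed to between 5388 and 15632 scaled counts at involution day 6 and between 2615 and 5419 in nulliparous glands, and 3 of the 12, Adgre1, Lyz2 and Trem2, were called higher. Luminal markers summed to between 15358 and 86625 at involution day 6 and between 10583 and 35854 in nulliparous glands, with Ltf the most abundant and 1 of 12, the milk protein gene Wap, called higher. Of all genes tested, 6.65% were called higher. Wap had nulliparous log2 values of 3.52 and 4.08, under the filter on low values, and passed it through the involution libraries. Those of Trem2, 4.46 and 4.19, were close to that filter. Basal epithelial markers summed to between 849 and 3849, against 2404 and 7698, and endothelial markers to between 7499 and 10606, against 9211 and 10122, with 0 of 6 called in each list. Acta2 was the most abundant basal and Tek the most abundant endothelial marker. Tek made up a large part of the endothelial sum, with 4456, 4590 and 5654 scaled counts, against 4640 and 6503. Pecam1 spread more widely, with 2149, 933 and 514 at involution day 6, against 2071 and 777. Between groups the epithelial lists were mixed: the milk protein genes Csn2 and Wap differed by 3.275 and 4.498, and the keratin genes Krt8, Krt19 and Krt14 by -1.57, -1.99 and -1.28. The part of these cells in the member values was not tested.

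Neutrophils, hepatocytes and adipocytes are other known sources of some of these proteins. Of 12 neutrophil markers, Ngp, Camp, Elane, Retnlg, Ly6g and Stfa2l1 stayed under 10 scaled counts in each library, and the list summed to between 232 and 456 at involution day 6 and between 71.8 and 113 in nulliparous glands. Csf3r, which encodes a cytokine receptor of neutrophils, had 189, 112 and 29.8 scaled counts at involution day 6, against 35.5 and 11.7, and S100a9 had 34.0, 48.7 and 10.2, against 15.0 and 3.45. The 1 neutrophil marker called higher was the protease gene Mmp8, also the most abundant of them. Of 8 hepatocyte markers 0 passed the filter on low values, and the list summed to at most 13.1 at involution day 6 and 24.7 in nulliparous glands, where Cyp2e1 was the most abundant. Adipocyte markers summed to between 4067 and 7479 at involution day 6 and between 7292 and 10214 in nulliparous glands. Fabp4, the most abundant of them, made up most of that sum, Adipoq reached at most 3.80 at involution day 6 and 16.8 in nulliparous glands, and Cfd and Car3 were called lower. Cfd had log2 values of 4.16, 3.65 and 4.37 at involution day 6, under the filter on low values, and passed it through the nulliparous libraries.

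Levels relative to other cells of the same library were also computed, a choice made after seeing the data. The mean of 6 of the 12 luminal markers, the structural and surface genes Krt8, Krt18, Krt19, Epcam, Cldn3 and Cd24a, each lower on average at involution day 6, was 10.54, 9.37 and 8.34 at involution day 6 and 11.55 and 10.18 in nulliparous glands. Against this mean, Lcn2 stood at 1.82, 2.01 and 1.64 at involution day 6 and at -0.34 and -1.05 in nulliparous glands, without overlap. Its SD at involution day 6 was 0.18 on that scale and 1.20 on the log2 scale itself. Hp stood at 1.55, 1.08 and 1.09, against -1.56 and -2.43, again without overlap and with an SD of 0.27 in place of 1.34. Saa1 stood at -1.41, -0.88 and -0.99, against -6.35 and -5.65. These sizes depend on the markers: against the mean of all 12 luminal markers, milk protein genes and Ltf included, the Lcn2 difference was 0.67 in place of 2.52 and that of Hp 1.39 in place of 3.24. On that scale Lcn2 stood at 1.05, 1.27 and 1.03 at involution day 6 and at 0.58 and 0.32 in nulliparous glands, still without overlap, while the groups of Orm1 and Ptx3 overlapped. The share of all genes without overlap was not counted on either luminal scale.

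Against the mean of the 12 macrophage markers, the groups of Saa1, Saa2 and Saa3 did not overlap. Saa1 and Saa3 were called on this scale and Saa2 was not, which describes members chosen with this comparison known. Of the 15912 genes tested, 3945 had an unadjusted p under 0.05 in limma on this scale. The share of all genes called after adjustment, or without overlap, was not counted. The groups of Orm1 overlapped here, unlike on the log2 scale itself, and those of Lcn2, Hp and Ptx3 overlapped on both. Saa3 stood at 2.24, 4.21 and 4.51 at involution day 6, against -2.02 and -1.06. Saa1 stood at -0.38, -0.43 and -0.74, against -2.87 and -2.73. Lcn2 stood at 2.85, 2.45 and 1.89 at involution day 6 and at 3.14 and 1.87 in nulliparous glands, with means of 2.40 ± 0.48 (SD, n = 3) and 2.51 ± 0.90 (SD, n = 2). Orm1 differed by -0.22, Hp by 0.61 and Ptx3 by 0.38 on this scale. The median difference of all genes tested was 1.42 relative to the 6 luminal, -0.43 relative to the 12 luminal and -1.21 relative to the macrophage markers, against which these values are to be read. Such a ratio shows unequal change of the gene and the markers within a library, not which cells hold the RNA.

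**Figure D4:**
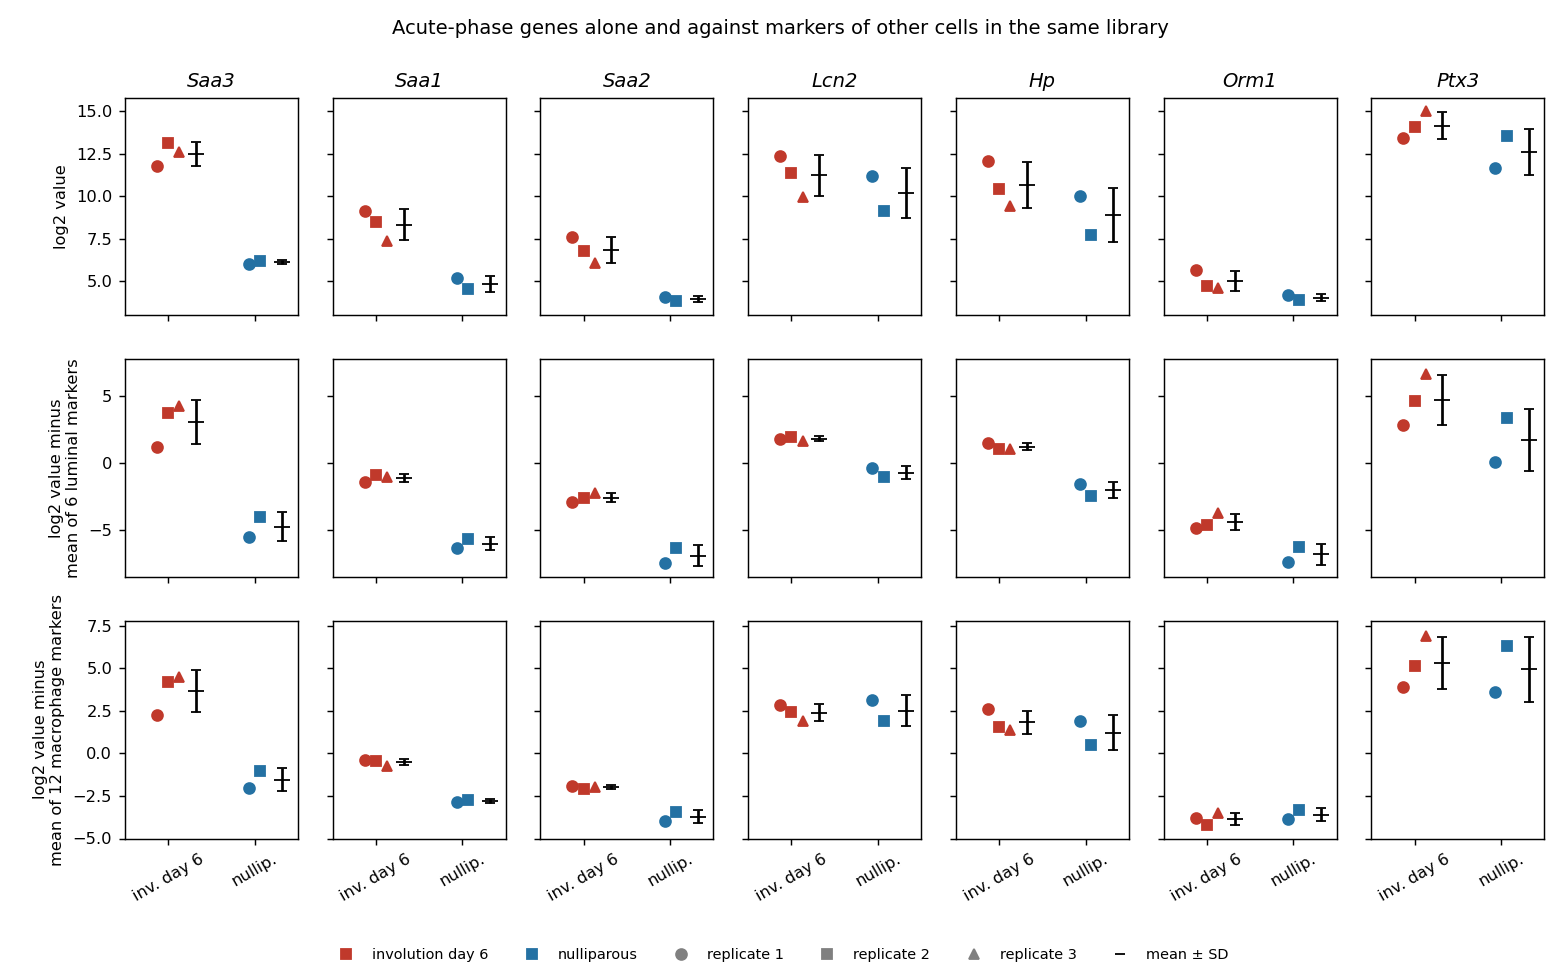
The 7 genes in each library as log2 values (top row), as log2 values minus the mean of 6 luminal markers (middle) and minus the mean of 12 macrophage markers (bottom), with involution day 6 in red, nulliparous in blue, and the mean and SD beside the points. In the middle row Lcn2 stands at 1.64 to 2.01 at involution day 6 and at -1.05 and -0.34 in nulliparous glands, and in the bottom row its groups overlap.

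The genes whose 5 library values ran closest to those of Saa3 were found by the Euclidean distance of log2 values centred on each gene's mean, over 5 libraries and 13855 other named genes. They were Mmp13, a collagenase gene (distance 1.45), Reg1, a secreted lectin gene (2.02), Ccl8, a chemokine gene (2.03), Atp6v0d2, a proton pump subunit gene (2.20), Igha, the constant region gene of immunoglobulin A (2.73), and Plxdc1 (2.78). The distance takes in the gap between groups, known beforehand for Saa3, as well as the spread within them. Each of these 6 genes was higher at involution day 6, by 4.18 to 5.92. Reg1 and Atp6v0d2 had nulliparous values under the filter on low values and passed it through the involution libraries. Mmp13 had 10.59, 11.07 and 9.61 at involution day 6, against 4.13 and 4.90. Igha had 14.16, 12.94 and 12.05, against 8.051 and 6.204, with the library order of Saa1 rather than of Saa3. The nearest member was Saa1, at 3.79, and the farthest Lcn2, at 6.47.

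Around these 7 genes, 130 further genes of the acute-phase response were followed in 5 lists, of which 107 were tested. By limma with Benjamini-Hochberg adjustment over all genes 25 were called higher and 4 lower, beside 6.65% and 4.66% of all genes tested, which became 20 and 7 with libraries scaled to the same sum. Without involution replicate 1, 2 or 3 the calls were 24, 10 and 18 higher and 3, 1 and 6 lower, and without nulliparous replicate 1 or 2 they were 6 and 12 higher and 1 and 1 lower. The genes called whichever library was left out were 6, namely Serpina3n, Lbp, Il1rn, Osmr, Zc3h12a and Slc22a17. Of the 29 called genes, Il1a and Pias3 had the library order of Lcn2 and the other 27 did not. That order held for 12.7% of all genes tested. A call favours genes with little spread within groups, so the selection itself lowers this count.

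Of the other acute-phase proteins, 11 of 23 tested genes rose, 0 fell and 12 did not pass, with a median difference of 0.88. Serpina3n, a serine protease inhibitor of the antichymotrypsin family, had 14.46, 15.09 and 15.16 at involution day 6, against 12.53 and 12.33, and rose 5.57-fold (log2 difference 2.48 ± 0.22, adjusted p = 0.00331 in limma). Its neighbours in the family Serpina3m and Serpina3g rose 4.97-fold and 3.87-fold, with adjusted p of 0.00789 and 0.0345 in limma. These paralogs resemble each other, so reads may have been split among them. Lbp, which encodes the binding protein for bacterial lipopolysaccharide, had 13.41, 13.73 and 13.69, against 11.79 and 12.29, and rose 2.96-fold (adjusted p = 0.00563 in limma). Il1rn, the gene of the IL-1 receptor antagonist, rose 4.60-fold (adjusted p = 0.00683 in limma).

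The copper carrier gene Cp rose 2.15-fold, the metallothionein genes Mt1 and Mt2 2.74-fold and 3.57-fold, and the complement genes Cfb, C4b and Serping1 3.04-fold, 1.84-fold and 1.60-fold. Their adjusted p ran from 0.0136 for C4b to 0.0476 for Serping1 in limma. With quantile normalization the log2 difference of C4b was 0.55 in place of 0.88 and that of Serping1 0.26 in place of 0.68, and Serping1 was then not called (adjusted p = 0.288 in limma). Serping1 also lost its call without any 1 of the 5 libraries and with equal sums. Of the classical plasma markers, Crp, Apcs, Fga, Fgb and Hamp did not pass the filter on low values. The fibrinogen chain gene Fgb, chosen like Fgg after its values were seen, had 1.13, 0.00 and 1.72 scaled counts at involution day 6, against 62.8 and 20.1 in nulliparous glands. Fgg, another chain, had log2 values of 5.16, 4.45 and 4.86, against 5.63 and 5.47, and did not pass (difference -0.73 ± 0.28, adjusted p = 0.149 in limma). Lrg1, a leucine-rich glycoprotein gene chosen here after its values were seen, had 9.57, 8.59 and 7.65 at involution day 6 and 9.73 and 7.93 in nulliparous glands.

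Of 9 genes of proteins known to fall in the acute phase, 4 passed the filter on low values, and of the other 5 none exceeded 14.9 scaled counts in a library. Among these Ahsg and Fetub, which encode the fetuins, rose 3.86-fold and 3.98-fold (adjusted p = 0.0235 and 0.019 in limma). Rbp4, the retinol carrier gene, fell by 1.08 ± 0.17 on the log2 scale (adjusted p = 0.0136 in limma). The median difference of the 4 was 1.51.

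Among inducing cytokines and their receptors, 6 of 22 tested genes rose, 0 fell and 16 did not pass, with a median difference of 0.46. Osmr, the receptor gene for oncostatin M, had 12.57, 12.78 and 12.70 at involution day 6, against 11.53 and 11.49, and rose 2.26-fold (adjusted p = 0.00272 in limma). Its ligand gene Osm rose 2.61-fold from a low level (adjusted p = 0.036 in limma), with 6.46, 6.52 and 5.73 against 4.81 and 4.89. Il1a rose 3.86-fold, Il17ra 2.05-fold, Il11ra1 1.49-fold and Tnfrsf1a, a TNF receptor gene, 1.44-fold. Il6, chosen after its values were seen, had 10.98, 11.85 and 11.81 at involution day 6, against 9.95 and 11.19, and did not pass (difference 0.97 ± 0.41, adjusted p = 0.184 in limma).

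Of the transcription regulators, 6 of 33 rose, Pias3 fell and 26 did not pass, with a median difference of 0.24. Stat3 had 13.42, 13.49 and 13.49 at involution day 6, against 12.93 and 12.90, and rose 1.46-fold (adjusted p = 0.0101 in limma). Socs3, a STAT3 target that feeds back on the receptor, had 15.52, 16.18 and 15.52, against 14.15 and 14.36, and rose 2.80-fold (adjusted p = 0.0136 in limma). Socs1 rose 1.93-fold. Pias3, an inhibitor of STAT3, fell by 0.46 ± 0.08 (adjusted p = 0.0209 in limma). On the NF-kB side, the feedback genes Zc3h12a and Nfkbie rose 2.20-fold and 2.11-fold (adjusted p = 0.00734 and 0.00742 in limma) and Bcl3 1.80-fold. Cebpd and Cebpb, genes of C/EBP factors chosen after their values were seen, differed by 1.16 ± 0.28 (adjusted p = 0.0514 in limma) and 0.34 ± 0.32 (adjusted p = 0.534 in limma).

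Of the receptors and partners of the members' products, 0 of 25 tested genes rose and 2 fell, with a median difference of 0.47. Slc22a17, a receptor gene for lipocalin 2, had 10.52, 10.45 and 10.42 at involution day 6, against 11.31 and 11.43, and fell by 0.91 ± 0.08 (adjusted p = 0.00361 in limma). Fgf2, whose product is bound by PTX3, fell by 0.62 ± 0.15 (adjusted p = 0.0493 in limma). Tnfaip6, a partner of PTX3 in the hyaluronan matrix that was chosen after its values were seen, had 14.38, 15.12 and 15.35, against 13.46 and 13.98, and did not pass (adjusted p = 0.0536 in limma). The serum amyloid A receptor genes Fpr1 and Fpr2 did not pass the filter on low values.

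**Figure D5:**
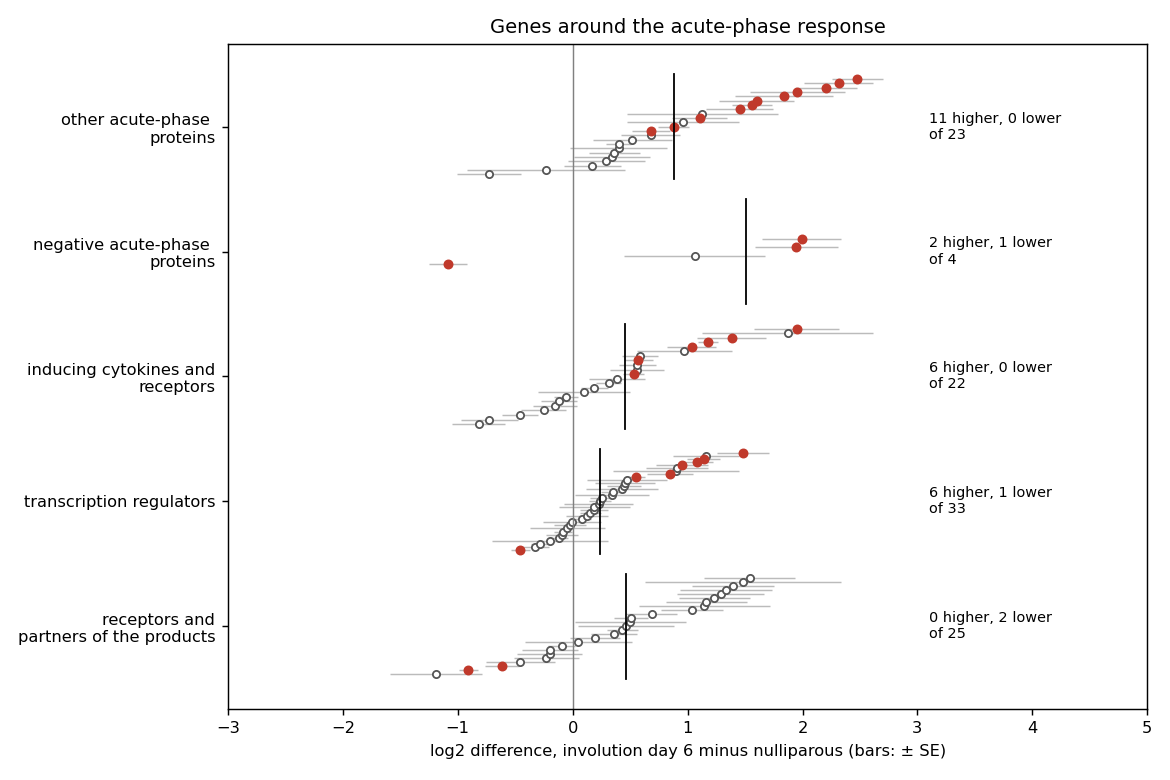
Log2 difference of involution day 6 minus nulliparous (horizontal axis, bars show the SE) of the tested genes in 5 lists around the acute-phase response, each list sorted by difference. Red points passed limma at an adjusted p under 0.05, open points did not, and the vertical line in each list is its median; 11 of 23 other acute-phase genes and 6 of 33 transcription regulators rose.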

How the data were processed

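Per the submitters' processing notes, bcl2fastq and STAR 2.4.2a were used on GRCm38. The authors deposited log2 values of scaled counts for 45706 rows, 1 column per library; no source used here gives the counting tool, annotation, scaling or offset. The TruSeq kit named in the labels does not mark strand. The offset was read from the 17395 rows without reads. Read depth is unknown, so sampling error is judged only from the spread between libraries.

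Groups were compared with limma 3.58.1 in R 4.3.3 (two-sided moderated test, trend in the prior variance, Benjamini-Hochberg adjustment, threshold 0.05) on 15912 genes whose mean log2 value reached 4.45, that is 10 scaled counts above the offset. Fold changes are on the deposited scale, except the 107-fold of Saa3. That value is a ratio of mean scaled counts without the offset and was 82.8-fold on the deposited scale. The members, lists and filter were chosen with earlier results of these data known. Named are each member, each list gene past the threshold, the 6 genes nearest to Saa3, and the most abundant or called markers; exceptions are marked. Symbols missing in the file for 22302 rows, gene positions and transcripts came from GENCODE M21, and promoters from RefSeq. Alignments used Biopython 1.88. The test was checked on simulated data. Alternatives covered the filter, pseudocount, scaling, prior, replicate block and left-out libraries.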

Additional observations from a re-analysis of the deposited data

How the results depend on the processing

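The number of genes called moved with the filter, the prior and the libraries used. Over all 28311 rows with reads, limma called 322 genes higher and 235 lower, and 7 and 1 of the other pathway genes, in place of 1058, 742, 25 and 4; the filters shared 508 called genes, and of the members Saa3 alone was called with the wider one. Fewer scaled counts stand behind the rows that this filter adds. Without a trend in the prior the counts were 686, 482 and 15, with 3 pathway genes lower. With equal column sums 1731 genes and 7 pathway genes were lower, and Serping1, Tnfrsf1a, Il11ra1, Bcl3 and Socs1 were not called; median centring lost Fgf2, Bcl3 and Socs1. With 1 library left out, counts ran from 296 to 786 higher and 208 to 483 lower, and for pathway genes from 6 to 24 and 1 to 6. The cause was not tested.

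With the replicate number as a block, 1817 genes were higher and 1449 lower, and 46 and 8 pathway genes; 28 of the 29 called pathway genes passed, and the count of called members went to 7 in place of 3. Deviations from the group mean correlated across genes at 0.577 for replicate 1 and 0.0628 for replicate 2. Involution replicate 3 and nulliparous replicate 2, which share no number, gave 0.51. The deviations of the 2 nulliparous libraries are equal and opposite, so these correlations are not separate checks. The groups share only 2 numbers and no label says that a number marks a shared animal or day, so the block is not read as a pairing, and involution replicate 3 adds nothing to that fit.

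Member differences stayed positive under each filter, pseudocount, scaling, prior and left-out library tried. With the offset removed and 1 added, Saa2 was at 4.54 and Orm1 at 1.86, and with 5 added Saa2 was at 3.65. Relative to 6 luminal markers, Saa1, Saa2, Saa3, Lcn2, Hp, Orm1 and Ptx3 differed by 4.91, 4.35, 7.82, 2.52, 3.24, 2.40 and 3.01. Relative to macrophage markers, Saa1, Saa2, Saa3, Lcn2, Orm1 and Ptx3 differed by 2.28, 1.72, 5.19, -0.11, -0.22 and 0.38. Relative to all 12 luminal markers they ran from 0.55 for Orm1 to 5.97 for Saa3, with Saa3 alone called. On that scale 123 of the 15912 genes tested had an unadjusted p under 0.05 in limma. These relative settings were added after seeing the data.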
